A study of Homo sapiens with 6 samples.

Results

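The AP-1 transcription factors were analysed as 10 genes picked by symbol (FOS, FOSB, FOSL1, FOSL2, JUN, JUNB, JUND, ATF3, BATF3 and MAFF) from the 25545 genes with expression values. RNA-seq was done on BT-549 cells, an established human triple-negative breast cancer (TNBC) line, transfected for 48 h with a control siRNA (CsiRNA) or with an siRNA against the lncRNA NEAT1 (NEAT1siRNA). Each group held 3 libraries, from cells grown in triplicate, and the comparison asks which transcripts differ when NEAT1 is silenced. A single NEAT1siRNA was used, so an effect of its sequence on other transcripts and an effect of losing NEAT1 cannot be told apart. The sample titles also carry a tet prefix, whereas the treatment is given as siRNA. Beyond the triplicate cultures the labels do not describe how the samples were separated, so p-values measure the spread between these samples, which may be technical.

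AP-1 is a dimer of basic leucine zipper (bZIP) proteins that binds short palindromic DNA elements. Jun proteins pair with each other or with Fos proteins, whereas Fos proteins need a Jun partner, and the mix of subunits sets how strongly a dimer activates or represses transcription. ATF3 and BATF3 are Jun partners that often repress, and MAFF is a small Maf protein that lacks a transactivation domain. In mesenchymal breast cancer cells, AP-1 made of FOSL1 and Jun proteins is known for driving genes of invasion and matrix remodelling.

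NEAT1 (chr11:65422774-65445540 on GRCh38, plus strand) was the silenced gene. Its level was 13.4, 7.68 and 10.8 TPM (a level corrected for gene length and scaled to the same total in each library) in CsiRNA replicates 1 to 3, and 4.36, 2.96 and 2.73 TPM in the NEAT1siRNA replicates. Silencing left 31.5% of the control mean, and the groups did not overlap. On the log2(TPM + 1) scale, where the added 1 TPM makes a fold change smaller, it was -1.41 (SE 0.14, limma adjusted p = 1.21e-07). Libraries held between 15787039 and 20343890 reads, as recovered from the TPM values and the mean normalized counts. The mesenchymal markers VIM (859 to 1112 TPM), CDH2 (76.0 to 113 TPM), FN1 (56.3 to 93.8 TPM) and ZEB1 (13.5 to 17.3 TPM) were present in the 6 libraries. The epithelial markers CDH1 (at most 0.168 TPM) and EPCAM (at most 0.0301 TPM) were near 0, as was the progesterone receptor PGR (at most 0.00676 TPM), the estrogen receptor ESR1 was listed at 0, and ERBB2 stood at 5.76 to 6.36 TPM. RN7SK, RN7SL1, RN7SL2 and RPPH1, which are short noncoding RNAs, took 64.4% to 68.1% of all TPM, which lowers the TPM of every other gene. The deviation of each gene from its own group mean followed transcript GC content differently in each library. Spearman's rho across 10423 genes ran from -0.73 in NEAT1siRNA replicate 2 to 0.68 in NEAT1siRNA replicate 1.

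Silencing NEAT1 was accompanied by lower FOSL1, MAFF, JUN and FOSL2 transcripts, and no AP-1 member rose. Of the 10 members, 8 had a mean level of at least 1 TPM and were tested, and 4 of these fell with a limma adjusted p under 0.05. The members, and the gene lists used below, were chosen with earlier results of these data known. Over all 10721 genes tested, 14% passed this threshold, 8.98% being lower and 4.99% higher in NEAT1siRNA cells. The median log2 fold change of the 8 members was -0.29, beside -0.04 over all genes tested. Centring each library on its median changed the split over all genes from 963 lower and 535 higher to 954 lower and 1158 higher, and quantile normalization gave 1109 lower and 1082 higher. Under both scalings the members counted 4 lower and 0 higher. The values of the groups did not overlap for 5 of the 8 members, against 30.3% of all genes tested. In bulk RNA, fewer cells with a transcript and less transcript per cell cannot be told apart.

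**Figure D1:**
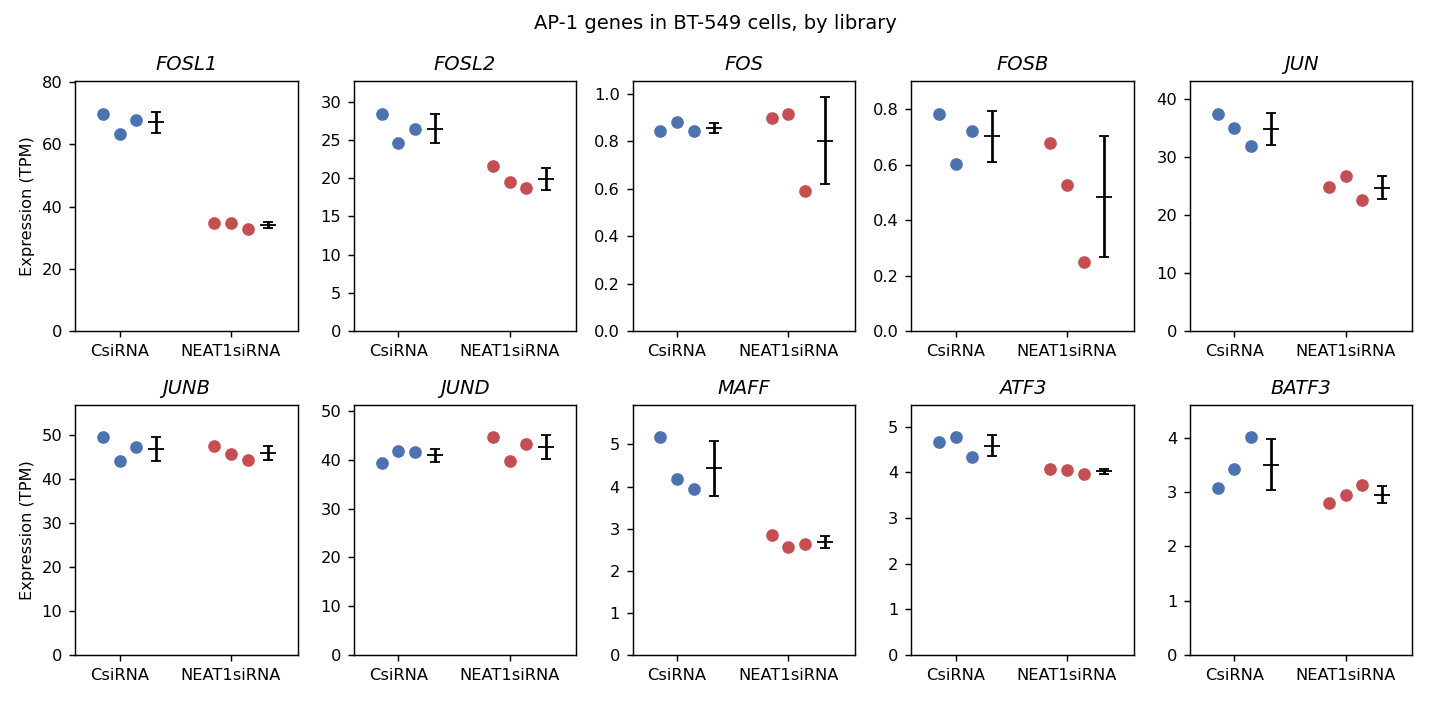
Level of each AP-1 gene in TPM (linear axes from 0, a scale of its own for each gene) in the 3 CsiRNA (blue) and 3 NEAT1siRNA (red) libraries, with the mean and SD in black. FOSL1 lay between 63.4 and 69.8 TPM in CsiRNA and between 32.9 and 34.7 TPM in NEAT1siRNA libraries, whereas the JUNB and JUND values of the groups overlap.

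Among the Fos family genes, FOSL1 (FRA-1, chr11:65892049-65900573, minus strand) had the highest transcript level and showed the largest fall of any member. Its protein lacks the transactivation domain of FOS. FOSL1 transcripts stood at 69.8, 63.4 and 68.0 TPM in CsiRNA replicates 1 to 3 and at 34.6, 34.7 and 32.9 TPM in NEAT1siRNA replicates 1 to 3. Every NEAT1siRNA library was thus far below every CsiRNA library, with little spread inside either group. The mean fell from 67.1 ± 3.30 to 34.1 ± 1.001 TPM (SD, n = 3 each), to 50.8% of the control. On the log2(TPM + 1) scale used for every fold change, FOSL1 fell by 0.96 (SE 0.088, 95% confidence interval -1.14 to -0.77, limma adjusted p = 3.46e-08). Between 1048 and 2650 reads per library lay behind these values.

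FOSL2 (FRA-2; chr2:28392448-28417317, plus strand) is the closest relative of FOSL1 and is often expressed with it in tumor cells. FOSL2 stood at 28.4, 24.6 and 26.4 TPM with CsiRNA and at 21.6, 19.5 and 18.7 TPM with NEAT1siRNA. The groups did not overlap, and the fall was smaller than that of FOSL1. Its mean fell from 26.5 ± 1.92 to 19.9 ± 1.47 TPM (SD, n = 3), or by 0.39 on the log2 scale (95% confidence interval -0.59 to -0.20, limma adjusted p = 0.0055). The call did not hold without CsiRNA replicate 1, the highest of the 6 libraries (log2 fold change -0.34, limma adjusted p = 0.0528), nor when genes of all levels were tested (limma adjusted p = 0.0566).

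FOS (chr14:75278826-75282230, plus strand) and FOSB (chr19:45467995-45475179, plus strand), the immediate early genes that serum and stress switch on for a short time, had the lowest levels of the members. FOS stood at 0.843, 0.881 and 0.844 TPM with CsiRNA and at 0.898, 0.916 and 0.591 TPM with NEAT1siRNA, from 24 to 42 reads per library. FOSB stood at 0.784, 0.604 and 0.722 TPM with CsiRNA and at 0.679, 0.526 and 0.251 TPM with NEAT1siRNA, from 19 to 67 reads. For both genes NEAT1siRNA replicate 3 was the lowest library and the groups overlapped. Both had a mean under 1 TPM and were not part of the test. When genes of all levels were tested, the log2 fold change of FOS was -0.05 (95% confidence interval -0.24 to 0.14, limma adjusted p = 0.795). That of FOSB was -0.21 (95% confidence interval -0.47 to 0.06, limma adjusted p = 0.368). At levels under 1 TPM the added 1 TPM makes such fold changes much too small, and mean TPM after silencing was 93.7% of the control for FOS and 69.0% for FOSB. With so few reads and this spread, smaller differences of either gene were not detectable.

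Of the Jun family genes, only JUN passed the test. JUN (c-Jun; chr1:58776845-58784048, minus strand) is the strongest activator of the family and is switched on by JNK. JUN transcripts stood at 37.5, 35.0 and 31.9 TPM with CsiRNA and at 24.8, 26.7 and 22.7 TPM with NEAT1siRNA. The lowest CsiRNA library was above the highest NEAT1siRNA library. The mean fell from 34.8 ± 2.80 to 24.7 ± 2.01 TPM (SD, n = 3), to 71.0% of the control, and the log2 fold change was -0.48 (SE 0.095, 95% confidence interval -0.67 to -0.28, limma adjusted p = 0.0012).

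JUNB (chr19:12791486-12793315, plus strand), which can oppose JUN at many promoters, stood at 49.5, 44.0 and 47.2 TPM with CsiRNA and at 47.5, 45.7 and 44.4 TPM with NEAT1siRNA. All 3 NEAT1siRNA values lay inside the CsiRNA range. Its log2 fold change was -0.03 (95% confidence interval -0.21 to 0.15, limma adjusted p = 0.868), and its sign was positive under median centring (0.03) and quantile normalization (0.01). In the annotation, 259 exon bases of JUNB are shared with HOOK2 on the opposite strand. The libraries were stranded, but whether the counting used strand is not given in the sources used here. JUND (chr19:18279694-18281622, minus strand), the member that most cell types express without stimulation, stood at 39.4, 41.8 and 41.6 TPM with CsiRNA and at 44.6, 39.9 and 43.2 TPM with NEAT1siRNA. Its log2 fold change was 0.05 (95% confidence interval -0.13 to 0.24, limma adjusted p = 0.747). The highest and the lowest JUND value with NEAT1siRNA came from replicates 1 and 2, the libraries with the most opposite GC trends, and the JUND transcript is 69.9% GC. Whether these trends bear on the JUND values was not tested. With the GC and length trend removed, the log2 fold change of JUND was 0.02 and that of JUNB was -0.03.

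MAFF (chr22:38200767-38216507, plus strand), an inducible small Maf that pairs with NFE2L2 and BACH1 as well as with itself, fell. It stood at 5.17, 4.18 and 3.94 TPM with CsiRNA and at 2.84, 2.56 and 2.63 TPM with NEAT1siRNA, from 128 to 250 reads per library. The groups did not overlap, although CsiRNA replicate 1 was well above the other two controls. The mean fell from 4.43 ± 0.651 to 2.68 ± 0.146 TPM (SD, n = 3), to 60.5% of the control. The log2 fold change of MAFF was -0.56 (SE 0.10, 95% confidence interval -0.76 to -0.35, limma adjusted p = 0.0005). Adding 1 TPM before taking logs makes the fold change of such a low gene too small, and voom on the recovered reads gave -0.67. In the annotation, 326 exon bases of MAFF are shared with PLA2G6 on the opposite strand.

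ATF3 (chr1:212565334-212620777, plus strand), a stress-induced factor, stood at 4.66, 4.76 and 4.33 TPM with CsiRNA and at 4.06, 4.05 and 3.96 TPM with NEAT1siRNA. The groups did not overlap, but its log2 fold change of -0.15 did not pass the test (95% confidence interval -0.34 to 0.04, limma adjusted p = 0.304). BATF3 (chr1:212686417-212699840, minus strand), best known from dendritic cells, stood at 3.07, 3.43 and 4.01 TPM with CsiRNA and at 2.79, 2.94 and 3.12 TPM with NEAT1siRNA. The groups overlapped, and only 45 to 74 reads per library lay behind these values. Its log2 fold change was -0.18 (95% confidence interval -0.39 to 0.02, limma adjusted p = 0.239). Both intervals include 0 and also reach past -0.28, the smaller bound of the JUN interval, so a fall of that size could not be told from no change.

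**Figure D2:**
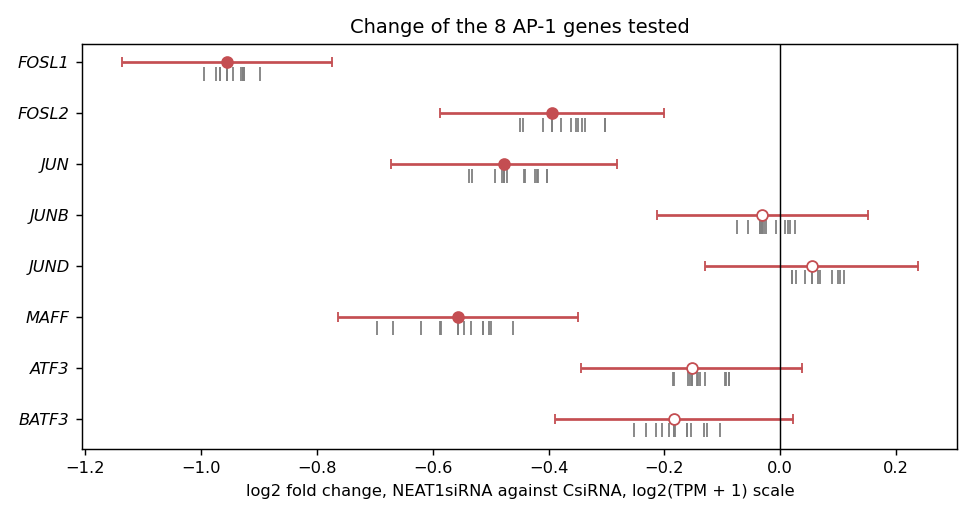
Log2 fold change (NEAT1siRNA against CsiRNA, log2(TPM + 1) scale) of the 8 AP-1 genes tested, with 95% confidence intervals as bars, filled circles for a limma adjusted p under 0.05, and grey ticks below each bar for the values under the other settings of the fit. The ticks of FOSL1 lie between -0.99 and -0.90 and those of JUN between -0.54 and -0.40, whereas those of JUNB lie on both sides of 0.

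The fall of FOSL1 changed the order of the members by level per length. In each of the 3 CsiRNA libraries FOSL1 ranked 1 of the 10 genes, followed by JUNB, JUND, JUN and FOSL2. In each of the 3 NEAT1siRNA libraries JUNB ranked 1 and JUND ranked 2, with FOSL1 at rank 3, and JUN and FOSL2 kept ranks 4 and 5. FOS and FOSB ranked 9 and 10 in the 6 libraries. ATF3, MAFF and BATF3 took ranks 6 to 8, with values that overlapped between ATF3 and MAFF and between MAFF and BATF3 in CsiRNA cells. In NEAT1siRNA cells the values overlapped between JUNB and JUND, between BATF3 and MAFF and between FOS and FOSB. All other neighbours in the order were apart in every library of a group.

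The balance of the families in transcript level differed between the groups, and protein levels are not part of these data. The levels of FOS, FOSB, FOSL1 and FOSL2 added up to 99.9, 89.5 and 95.9 TPM in the CsiRNA libraries and to 57.8, 55.6 and 52.5 TPM in the NEAT1siRNA libraries. Those of JUN, JUNB and JUND added up to 126, 121 and 121 TPM and to 117, 112 and 110 TPM. Neither sum overlapped between groups, and the difference was smaller for the Jun family, in which JUN alone passed the test. The ratio of the Fos sum to the Jun sum was 0.776 ± 0.0303 with CsiRNA and 0.489 ± 0.0108 with NEAT1siRNA (SD, n = 3, exact two-sided permutation p = 0.1, the smallest that 3 against 3 libraries can give). FOSL1 made up 70.5% ± 0.546 of the Fos sum with CsiRNA and 61.7% ± 1.52 with NEAT1siRNA, FOSL2 27.8% ± 0.556 and 36.0% ± 1.20. FOS and FOSB together stayed minor, at 1.64% ± 0.0163 and 2.31% ± 0.615 (exact two-sided permutation p = 0.4).

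Ratios of members within a library do not depend on its total. The ratio of FOSL1 to JUNB was 1.41, 1.44 and 1.44 with CsiRNA and 0.729, 0.760 and 0.742 with NEAT1siRNA, so that FOSL1 was above JUNB in every control library and below it in every NEAT1siRNA library. The ratio of FOSL1 to FOSL2 was 2.54 ± 0.0695 and 1.72 ± 0.0958, lower in every NEAT1siRNA library than in any CsiRNA library. JUN relative to JUNB was 0.743 ± 0.0613 and 0.539 ± 0.0398, and relative to JUND 0.852 ± 0.0929 and 0.583 ± 0.0765. JUN made up 28.4% ± 1.70 of the Jun sum with CsiRNA and 21.8% ± 1.71 with NEAT1siRNA. MAFF relative to ATF3 was 0.966 ± 0.125 and 0.666 ± 0.0329. Each of these ratios and the JUN share had an exact two-sided permutation p = 0.1 (n = 3 each), the smallest possible, and none overlapped between groups.

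**Figure D3:**
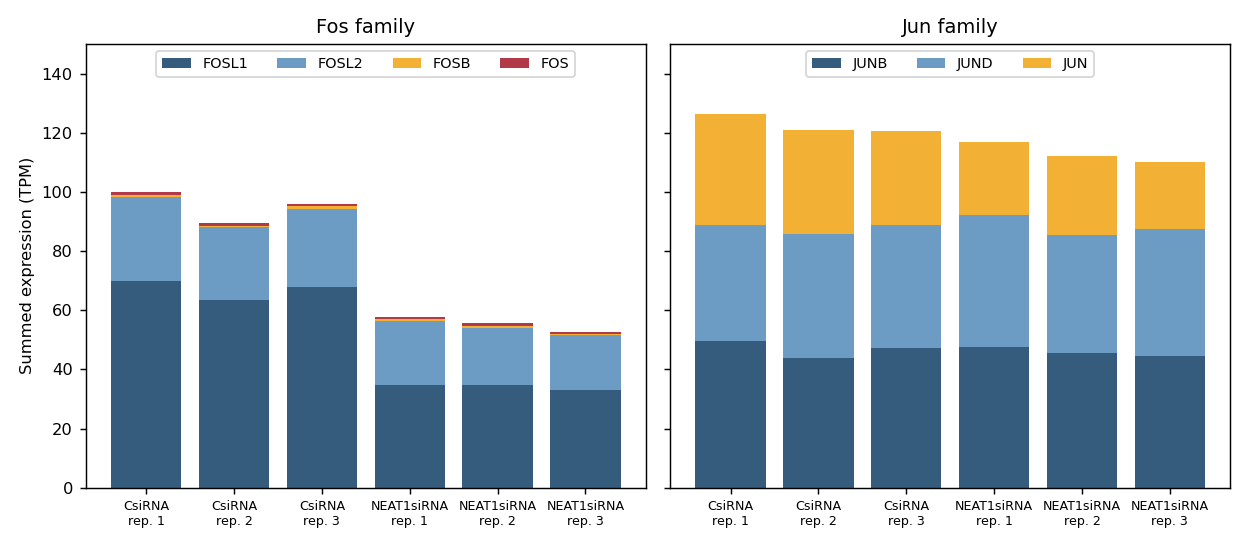
Summed TPM of the Fos family (left) and the Jun family (right) in each of the 6 libraries, with each gene as a coloured part of the bar. The Fos bars stand at 89.5 to 99.9 TPM in CsiRNA and 52.5 to 57.8 TPM in NEAT1siRNA libraries, most of the gap being FOSL1, and the Jun bars at 121 to 126 and 110 to 117 TPM.

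Promoter sequences of RefSeq (GRCh38.p14, 250 bases before to 50 after the start) covered 8 members in 10 windows. FOSL1 and BATF3 had no entry in this table. The windows of JUN, FOSL2 and MAFF are printed because these members fell, and that of JUND as a member that did not pass the test, in each case because the window holds a binding element of bZIP dimers. Capitals mark these elements and, in MAFF, also the E-box CACGTG.
JUN (chr1:58783998-58784297, minus strand, TGACATCA): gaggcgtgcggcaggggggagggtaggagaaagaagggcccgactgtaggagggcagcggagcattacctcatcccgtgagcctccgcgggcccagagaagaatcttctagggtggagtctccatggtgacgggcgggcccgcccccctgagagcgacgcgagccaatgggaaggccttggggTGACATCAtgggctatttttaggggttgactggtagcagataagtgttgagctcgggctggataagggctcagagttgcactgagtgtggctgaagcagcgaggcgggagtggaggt
FOSL2 (chr2:28392608-28392907, plus strand, TGACTCA): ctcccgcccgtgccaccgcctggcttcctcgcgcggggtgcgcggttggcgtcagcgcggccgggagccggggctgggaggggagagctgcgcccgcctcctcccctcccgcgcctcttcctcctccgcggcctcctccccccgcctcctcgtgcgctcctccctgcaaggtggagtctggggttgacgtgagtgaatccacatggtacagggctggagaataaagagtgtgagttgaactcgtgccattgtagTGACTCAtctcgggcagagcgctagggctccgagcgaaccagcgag
MAFF (chr22:38201744-38202043, plus strand, CACGTG and TGACGTCA): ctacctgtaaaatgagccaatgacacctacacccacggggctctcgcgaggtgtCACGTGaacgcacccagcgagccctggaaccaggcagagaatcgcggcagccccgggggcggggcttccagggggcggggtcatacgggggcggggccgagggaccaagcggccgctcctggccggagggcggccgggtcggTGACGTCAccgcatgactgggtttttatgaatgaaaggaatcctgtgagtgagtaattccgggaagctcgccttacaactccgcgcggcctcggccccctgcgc
JUND (chr19:18281573-18281872, minus strand, TGACGTCA): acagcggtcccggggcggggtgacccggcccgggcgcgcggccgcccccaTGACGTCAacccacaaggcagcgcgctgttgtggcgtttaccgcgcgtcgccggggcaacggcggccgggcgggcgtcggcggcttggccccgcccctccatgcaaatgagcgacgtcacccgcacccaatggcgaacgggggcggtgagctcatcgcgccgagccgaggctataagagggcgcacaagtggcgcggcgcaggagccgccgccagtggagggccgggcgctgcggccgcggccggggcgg

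Both strands of each window were searched for TGACTCA (the TPA response element), TGACGTCA (the cAMP response element), TGACATCA (the variant known from the JUN promoter, through which JUN acts on its own gene), CACGTG (the E-box), the CArG box and the kappaB site. With the first base of the transcript counted as 1, TGACATCA began at -67 in JUN and at -123 in 1 of the ATF3 windows. TGACTCA began at 5 in FOSL2, and TGACGTCA began at -200 in JUND and at -54 in MAFF. The MAFF window printed also held CACGTG at -196, and a second MAFF window held a kappaB site at -102 and CACGTG at -81. None of the 6 motifs was found in the FOS, FOSB and JUNB windows. Over 35116 windows of all genes, TGACTCA was present in 4.95%, TGACGTCA in 1.85%, TGACATCA in 2.61%, CACGTG in 7.26%, the CArG box in 1.29% and the kappaB site in 11.3%. TGACATCA occurred in JUN, which fell, and in ATF3, and TGACGTCA in MAFF, which fell, and in JUND. ATF3 and JUND did not pass the test. Among the members with a window, TGACTCA was found only in FOSL2 and CACGTG and the kappaB site only in MAFF, both of which fell. The CArG box was found in none, and binding was not measured.

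Genes widely described as AP-1 targets were mostly lower. Of 27 on the list, 18 were tested, and 12 fell and 0 rose, with a median log2 fold change of -0.35 beside -0.04 over all genes tested. The 12 are 66.7% of those tested, whereas 8.98% of all genes tested were lower and 4.99% higher. The list was chosen with earlier results of these data known. Many of the listed genes are also NF-κB targets, and which factor moved with them was not tested. The protease PLAU, which starts plasmin formation, fell from 48.3 ± 3.41 to 28.8 ± 1.97 TPM (log2 fold change -0.73), and its receptor PLAUR from 25.6 ± 1.97 to 16.8 ± 1.44 TPM (-0.58). The cytokines CXCL8 (48.0 ± 5.73 to 19.4 ± 5.48 TPM, log2 fold change -1.29), LIF (8.62 ± 0.693 to 3.61 ± 0.503 TPM, -1.06) and CCL2 (22.1 ± 0.901 to 15.8 ± 1.53 TPM, -0.46) fell as well. So did the cell cycle driver CCND1 (15.0 ± 0.253 to 8.67 ± 0.966 TPM, log2 fold change -0.73) and the EGFR ligand HBEGF (9.50 ± 0.319 to 5.85 ± 0.189 TPM, -0.62). The limma adjusted p of these 7 genes was at most 0.0017 and each was below 0.05 under all 16 other settings of the fit.

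The other calls among the targets were less firm. The metallothionein MT2A fell from 882 ± 16.2 to 717 ± 48.1 TPM (log2 fold change -0.30, limma adjusted p = 0.0114) and the hyaluronan receptor CD44 from 262 ± 15.5 to 212 ± 16.8 TPM (-0.31, limma adjusted p = 0.0187). Without CsiRNA replicate 1 their limma adjusted p was 0.0758 and 0.135, and without NEAT1siRNA replicate 3 it was 0.0842 and 0.0968. That of CD44 was also over the threshold without CsiRNA replicate 2 (0.0517) and without NEAT1siRNA replicate 1 (0.0702). IL6 (log2 fold change -0.37, limma adjusted p = 0.0088) and EGFR (-0.33, limma adjusted p = 0.025), named after their values were seen, lost the call without CsiRNA replicate 1 (0.068 and 0.2145) or without NEAT1siRNA replicate 3 (0.0514 and 0.140). TIMP1, an inhibitor of matrix proteases, stood at 154 ± 9.03 and 152 ± 7.26 TPM, with a log2 fold change of -0.02 (95% confidence interval -0.20 to 0.15) that was 0.03 under median centring. The other targets tested, named after their values were seen, did not pass either. MMP1 stood at 12.0 ± 0.608 and 10.2 ± 1.59 TPM, and its groups overlapped (log2 fold change -0.22, limma adjusted p = 0.159). The log2 fold changes of EZR, HMOX1, VEGFA and TGFB1 were -0.13, -0.04, 0.02 and 0.09. The 9 targets under the filter, among them MMP3, MMP9, MMP10 and MMP13, were below 1 TPM in every library.

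**Figure D4:**
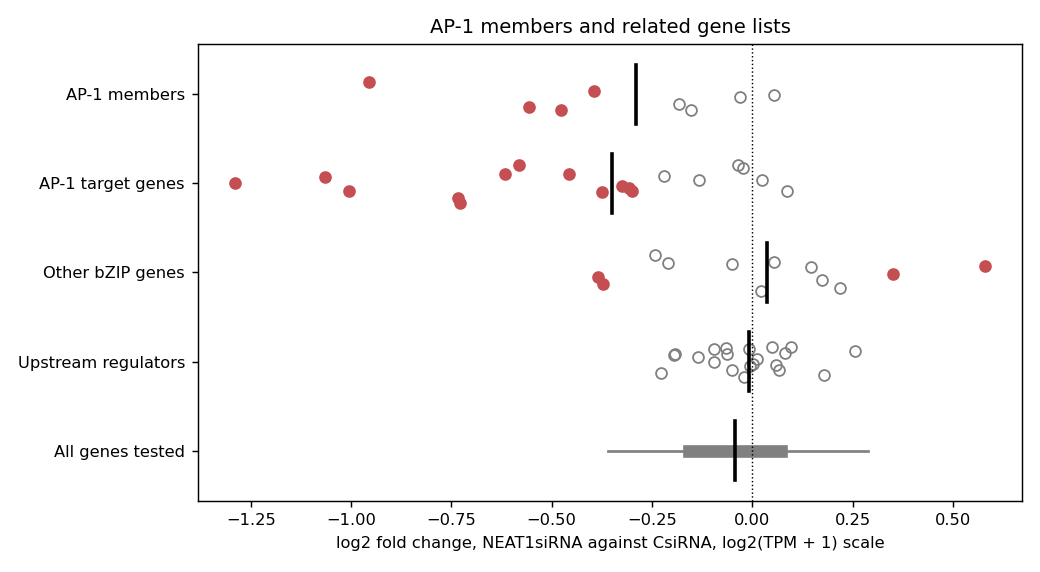
Log2 fold change (NEAT1siRNA against CsiRNA, log2(TPM + 1) scale) of each gene tested among the AP-1 members and the lists of targets, other bZIP genes and upstream regulators, filled for a limma adjusted p under 0.05, with medians as black lines and, for all genes tested, the 25th to 75th (thick) and 5th to 95th (thin) percentiles. The medians are -0.29 for the members, -0.35 for the targets, 0.04 for the other bZIP genes, -0.01 for the upstream regulators and -0.04 for all genes.

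Other bZIP factors that can pair with the members moved in both directions. Of 20 listed, 12 were tested, with 2 lower (16.7%), 2 higher (16.7%) and a median log2 fold change of 0.04. Over all genes tested, 8.98% were lower and 4.99% higher. The values of the groups did not overlap for 8 of the 12 (66.7%), against 30.3% of all genes tested. CREB5, a partner of JUN, fell from 5.26 ± 0.601 to 3.78 ± 0.205 TPM (log2 fold change -0.38, limma adjusted p = 0.0094), and the small Maf gene MAFK fell from 4.42 ± 0.258 to 3.20 ± 0.375 TPM (-0.37, limma adjusted p = 0.0112). ATF2, which JNK and p38 activate and which pairs with JUN, rose from 12.9 ± 1.29 to 16.8 ± 3.19 TPM (0.35, limma adjusted p = 0.0345), with NEAT1siRNA replicate 2 highest at 20.4 TPM. The call of ATF2 was lost without that library (0.126), without NEAT1siRNA replicate 3 (0.0503) and without CsiRNA replicate 3 (0.103). Those of CREB5 and MAFK were lost without NEAT1siRNA replicate 3 (limma adjusted p = 0.0532 and 0.063), and that of CREB5 without CsiRNA replicate 1 (0.0746). Without NEAT1siRNA replicate 3, only 1 gene of this list passed the test. The 3 listed genes with the highest levels, ATF4 (84.6 and 87.9 TPM in CsiRNA and NEAT1siRNA), NFE2L2 (32.7 and 37.1 TPM) and NFE2L1 (32.2 and 35.7 TPM), had log2 fold changes of 0.05, 0.17 and 0.15 that did not pass the test, though NFE2L2 and NFE2L1 passed it under some other settings, such as with the GC and length trend removed (0.20 and 0.22).

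Kinases, SRF partners and ubiquitin ligases that act on Jun and Fos genes or proteins made up a list of 22 genes. Of these, 21 were tested and 0 passed the limma test, against 14% of all genes tested. An unadjusted limma p under 0.05 was seen for 2, and the median log2 fold change was -0.01. The values of the groups did not overlap for 5 (23.8%), against 30.3% of all genes tested. Among the listed genes with the highest levels were MAP2K2 (34.4 TPM in both groups) and the JUN ligase gene ITCH (24.0 and 22.96 TPM). Their log2 fold changes were 0.00 and -0.06, with 95% confidence intervals of -0.19 to 0.19 and -0.26 to 0.14, and that of MAP2K2 changed sign under other settings. After their values were seen, 3 further genes were singled out because other settings called them. MAP2K4, a kinase that activates JNK (log2 fold change 0.26, limma adjusted p = 0.0962), and the ERK gene MAPK3 (0.18, limma adjusted p = 0.212) passed with quantile normalization, median centring, voom on recovered reads and the GC and length trend removed. ELK3, an SRF partner (-0.23, limma adjusted p = 0.114), passed with that trend removed and without NEAT1siRNA replicate 2 (-0.29, limma adjusted p = 0.0242).

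FOSL1 was both the member with the highest mean level over the 6 libraries, although not in NEAT1siRNA cells alone, and the one with the largest fold change. The genes tested whose log2(TPM + 1) values followed it most closely over the 6 libraries were RAP1GAP2 (Pearson's r = 0.9999), TMPPE (0.998) and ADAM19 (0.998). These are the highest correlations among all 10721 genes tested, over libraries that fall into 2 groups, so the values are a description only. RAP1GAP2 stood at 7.76, 7.34 and 7.62 TPM with CsiRNA and at 4.89, 4.92 and 4.77 TPM with NEAT1siRNA. ADAM19 stood at 8.09, 6.99 and 7.63 TPM and at 3.48, 3.65 and 3.52 TPM. TMPPE stood at 3.90, 3.57 and 3.77 TPM and at 2.36, 2.31 and 2.17 TPM, and each of the 3 genes fell past the threshold (limma adjusted p = 0.0002, 2.19e-07 and 0.0004 in this order).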

How the data were processed

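RNA-seq of BT-549 cells was analysed as 3 CsiRNA and 3 NEAT1siRNA libraries. The authors isolated total RNA, prepared stranded mRNA libraries, aligned reads with STAR to GRCh38 and normalized counts with DESeq2 (versions, counting tool and its strand setting not given in the sources used here). The authors deposited TPM per gene and library, and a comparison table from which only the mean normalized count (a signal: counts divided by size factors, then averaged over all libraries) was used. Its other columns hold the authors' own fold changes and p-values and were not used. TPM steps and mean normalized counts gave back reads (99.8% of values within 0.05 of a whole number in the 5043 genes whose mean normalized count was under 5, approximate above that), which set the depth and its precision. Chi-square per degree of freedom between replicates was 5.39 to 17.8, more than sampling noise gives.

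TPM was transformed to log2(TPM + 1), genes with a mean of at least 1 TPM were kept, and the moderated test of limma 3.58.1 (R 4.3.3, eBayes with trend) compared the groups, two-sided, with Benjamini-Hochberg adjustment over all 10721 genes and a threshold of 0.05. Ratios were compared by exact permutation. Python 3.11.15, numpy 2.4.6, pandas 2.3.3 and matplotlib 3.10.9 were used. Coordinates, GC content and length came from the GENCODE annotation of GRCh38, through 22278 current and 779 older symbols, with 2488 genes unmatched, so that 97.2% of the genes tested had both. Promoters came from RefSeq. The members and lists were chosen with earlier results of these data known. Named were the members, NEAT1, the 3 highest and up to 8 called genes of each list, and the 3 genes most like FOSL1, and some genes that this rule picks are not reported here. Other pseudocounts, filters, scalings, corrections and left-out libraries were tried.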

Additional observations from a re-analysis of the deposited data

How the results depend on the processing

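The fit was repeated under 16 other settings, of which 6 left out 1 library each, and with a minimum fold change. The calls of FOSL1 and JUN held in each of the 16 and that of MAFF in the 15 that tested it (limma adjusted p at most 0.0034, 0.0426 and 0.0499). FOSL2 lost its call under 2. With no filter on TPM the calls of FOSL2, CREB5, MAFK, ATF2, MT2A, CD44, IL6 and EGFR were lost (limma adjusted p from 0.0566 to 0.233). The count of members past the threshold, 4 at first, was 3 with no filter on TPM and 3 of the 5 tested at a mean of at least 5 TPM. It was 2 when the log2 fold change also had to reach 0.5 in size. The count over all genes, 1498, was 505 with no filter on TPM, 3467 with the GC and length trend removed, 3391 with a replicate block added to that, 2475 with voom on recovered reads and 314 with the minimum fold change. In the same order, the other bZIP genes, 4 at first, gave 2, 7, 7, 6 and 1, and 1 at a mean of at least 5 TPM. The upstream regulators, 0 at first, gave 2 with quantile normalization, median centring or voom and 3 with the GC and length trend removed, with or without the replicate block. The targets, 12 at first, gave 8 with no filter on TPM and 7 with the minimum fold change. They gave 13 with the GC and length trend removed, with or without the replicate block. Leaving out each library in turn gave 759 to 2083 genes (759 without CsiRNA replicate 1, 838 without NEAT1siRNA replicate 3), 3 to 4 members, 1 to 4 other bZIP genes, 0 to 1 upstream regulators and 8 to 13 targets. The cause of these differences was not tested.

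Values under other settings are not given for MMP1, EZR, HMOX1, VEGFA and TGFB1. Among the other genes named, the sign changed only for JUNB, MAP2K2 and TIMP1, whose log2 fold changes were near 0. JUNB was at 0.014 with quantile normalization, 0.026 with median centring and 0.018 with voom, and at -0.074 to 0.0082 with a library left out. MAP2K2 was at -0.0068 with the GC and length trend removed, with or without the replicate block. TIMP1 was at 0.033 with median centring, 0.025 with voom and 0.019 with that trend removed, in both fits. With a library left out, MAP2K2 ranged from -0.033 to 0.064 and TIMP1 from -0.065 to 0.019. Samples with the same replicate number did not deviate together (correlations of -0.03, 0.25 and -0.11), so the numbers were not taken to pair the samples, and the replicate block alone gave 1640 genes and the same 4 members. The reads behind FOS, FOSB and BATF3 limit what could be detected for them.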
